A study of Mus musculus with 11 samples.

Results

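The genes described here are 9 genes tied to follicular helper T cells or to the receptor Slamf6: Bcl6, Tox, Tox2, Ascl2, Cxcr5, Icos, Slamf6, Sh2d1a and Cd200. They were chosen by name, and every probe that the platform annotation assigns to one of these symbols was taken, which gave 17 of the 45281 probes on the array and 8 of the 9 genes. Sh2d1a, which encodes the adaptor SAP that binds the tails of SLAM receptors, had no probe under that symbol and was not analysed here. Of the 17 probes, 12 were above background on at least 5 of the 11 arrays and were tested, and they cover 6 genes.

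Messenger RNA was measured with a 1-colour mouse Illumina bead array in T cells positive for TCRβ and CD4, sorted from colonic lamina propria. The WT group holds 6 samples and the Il23r-/- group, called knockout below, holds 5, all of strain C57BL/6. Both kinds of naive CD4 T cell had been transferred together into Rag1-/- mice, which make no T or B cells of their own, and were separated by congenic markers once the mice showed signs of colitis. Rag1 deficiency of the host and the colitis are thus shared by both groups, and age and the number of recipients are not given in the labels. Nothing in the labels says that samples of a genotype came from separate mice, and the p-values below therefore reflect only how far these samples vary, part of which may be technical.

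Follicular helper T cells leave the T cell zone for the B cell follicle and help B cells to mature. The transcription factor Bcl6 directs them, the chemokine receptor Cxcr5 guides them, and the costimulatory receptor Icos sustains them. Slamf6 is a receptor of the SLAM family that binds itself on neighbouring cells and signals through SAP. It is also known as a marker of T cells that keep a stem-like capacity to renew. In the gut, CD4 T cells with parts of this program have been described beside the cells that produce IL-17.

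The arrays resembled each other, with correlations across tested probes between 0.976 and 0.992, and no pair was identical. An array had between 17309 and 18440 probes above background, and precision is limited by how few arrays there are. All 11 T cell identity genes with a probe were above background, among them Cd3e and Cd4. Of the CD8 chain genes, Cd8a was above background on 0 arrays and Cd8b1 on all 11, at 10.54 in WT and 10.36 in knockout cells. Of the B cell genes, Pax5, Blnk, Cd22 and Cr2 were above background on 0 arrays, Ms4a1 on 1, Cd79b on 7 and Fcer2a on 8. Values below are background-corrected, quantile-normalized log2 values unless another scale is named, and a level of one probe is not comparable with that of another. The threshold for a call was an adjusted p of 0.05 in limma over all 18003 tested probes. Il23r gave no signal above background on any of the 11 arrays (4.67 to 4.99 in WT, 4.61 to 4.81 in knockout samples), so its level cannot check the genotype labels.

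None of the 12 probes passed the test between genotypes. The smallest p-values belonged to Cd200 and Slamf6, at higher levels in knockout cells, and to Bcl6, at a lower level. Called probes made up 1.78% of all tested probes (320 of 18003), 1.17% as higher and 0.611% as lower in knockout cells. These were 210 higher and 110 lower calls, or 199 and 58 with arrays scaled to equal medians. At an unadjusted p under 0.05 there were 4 of the 12 probes, 2 higher and 2 lower, where 17.6% of all tested probes had such a p, 9.26% higher and 8.32% lower. The median log2 difference was -0.01 over the 12 probes and -0.01 over all tested probes, and 6 of the 12 were higher and 6 lower. For 0 of the 12 probes were the groups free of overlap, against 3.21% of all tested probes, 1.92% higher and 1.29% lower in knockout cells. Since the RNA comes from bulk populations, fewer cells of a type and less RNA per cell cannot be told apart in any of these values.

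**Figure D1:**
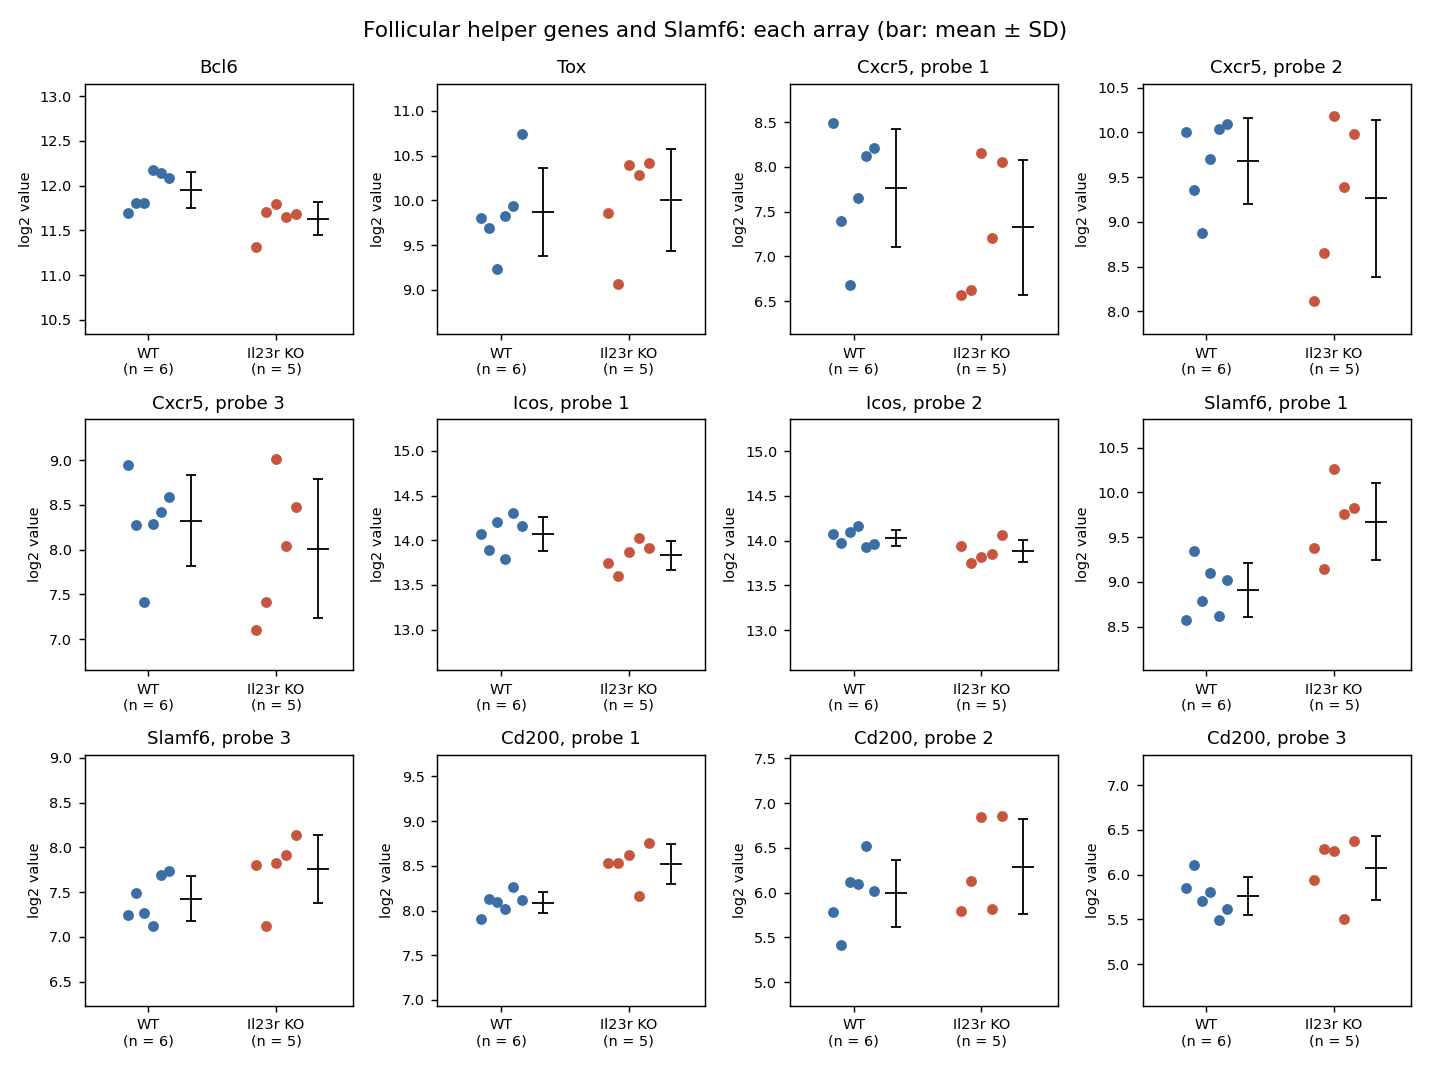
Log2 value (y axis, with the same span in each panel) of the 12 tested probes on each array, WT in blue (n = 6) and Il23r knockout in red (n = 5), with the mean and SD as a bar. The groups overlap in every panel, and for Slamf6 probe 1 and Cd200 probe 1 all but 1 knockout sample lie above every WT sample.

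Promoter sequences are shown for Cd200, Slamf6 and Bcl6, the 3 genes with the smallest unadjusted p (0.00116, 0.00133 and 0.0154), with STAT motifs marked because the IL-23 receptor is known to signal through STAT3. Each is the stretch of 250 bases before a transcription start from RefSeq (GRCm38.p6), 5′ to 3′ on the gene's strand. Of the 9 genes, Ascl2, Bcl6, Cd200, Slamf6 and Tox2 matched that table, and Cxcr5, Icos, Sh2d1a and Tox did not. Capitals mark the STAT motif TTCNNNGAA, which reads the same on both strands. The sequences lie at chr16:45409054-45409303 (Cd200, minus strand), chr1:171917212-171917461 (Slamf6, plus strand), chr16:23988853-23989102 and chr16:23981284-23981533 (Bcl6 starts 1 and 2, minus strand).
Cd200: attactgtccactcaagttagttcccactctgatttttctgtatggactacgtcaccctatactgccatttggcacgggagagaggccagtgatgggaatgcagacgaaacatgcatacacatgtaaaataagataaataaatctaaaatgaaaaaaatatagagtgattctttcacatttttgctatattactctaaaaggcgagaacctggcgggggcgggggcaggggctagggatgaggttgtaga
Slamf6: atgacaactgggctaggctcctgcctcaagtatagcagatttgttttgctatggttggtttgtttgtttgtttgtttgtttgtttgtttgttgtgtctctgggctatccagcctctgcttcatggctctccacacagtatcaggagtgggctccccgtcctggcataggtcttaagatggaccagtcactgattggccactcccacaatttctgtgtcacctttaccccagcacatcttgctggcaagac
Bcl6 start 1: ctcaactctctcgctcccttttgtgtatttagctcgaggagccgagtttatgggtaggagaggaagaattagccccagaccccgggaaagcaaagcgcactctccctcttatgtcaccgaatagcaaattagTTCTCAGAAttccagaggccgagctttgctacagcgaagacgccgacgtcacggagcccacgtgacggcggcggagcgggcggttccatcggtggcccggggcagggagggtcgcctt
Bcl6 start 2: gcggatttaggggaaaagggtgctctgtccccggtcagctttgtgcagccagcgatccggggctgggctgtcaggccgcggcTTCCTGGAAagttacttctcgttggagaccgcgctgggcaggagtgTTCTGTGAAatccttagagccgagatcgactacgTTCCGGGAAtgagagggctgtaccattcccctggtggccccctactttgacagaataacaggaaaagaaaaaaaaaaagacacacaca

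The STAT motif was found in 0 places before the starts of Cd200 and Slamf6, in 1 place before the first Bcl6 start and in 3 places before the second. On the first it began 118 bases before the start, and on the second 168, 122 and 88 bases before it. Among all 32851 promoter windows of that length, 7.0% held at least 1 match, and 9 windows held 3 or more. The motif CTTTGNT of TCF1 and LEF1, searched on both strands, was found in 2 places before the first Bcl6 start and in 0 of the other windows shown, against 5248 of all 32851 windows. The E box CANNTG, which E proteins and Ascl2 bind and which Id3 counters, was found in 2 places before Cd200, 1 before Slamf6, 1 before the first Bcl6 start and 0 before the second, against 66.2% of all windows. The STAT and TCF1 matches did not overlap each other. A match describes letters in these windows and says nothing on binding.

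Bcl6, the repressor that defines the follicular helper lineage, was measured by a single probe and was above background on all 11 arrays. In WT samples its level ran from 11.69 to 12.17 with a median of 11.95. The knockout samples 1 to 5 were at 11.31, 11.71, 11.80, 11.65 and 11.68. Every knockout sample lay below the WT median, and 3 of the 5 lay below the lowest WT sample. Mean levels were 11.95 ± 0.21 (SD, n = 6) for WT and 11.63 ± 0.19 (SD, n = 5) for knockout cells. The difference, knockout minus WT, was -0.32 on the log2 scale with a 95% interval from -0.57 to -0.07, and it did not pass (limma, adjusted p = 0.177). Over the 11 arrays Bcl6 followed the mean level of CD8 and natural killer cell markers (r = 0.75). It ran against the mean levels of epithelial markers (r = -0.64) and myeloid markers (r = -0.52). These r values take in the difference between genotypes as well as the spread within them. Mean levels of marker lists were taken over unlogged values, so the brightest genes of a list weigh most. In the CD8 and natural killer list 4 of 6 genes were tested, and Eomes and Cd8b1 were the brightest. Eomes, which CD4 T cells can also express, varied more among WT samples (SD 0.66) than Cd8b1 (SD 0.18). The r of this list therefore mostly describes Eomes. Cd8a and Ncr1 of that list were above background on 0 arrays. In the epithelial list 5 of 9 genes were tested, and Cdh1 (0.82, adjusted p = 0.071) and Krt18 (-0.75, adjusted p = 0.133) had opposite signs, while Epcam, Vil1 and Lgr5 were above background on 0 arrays. The part of these markers in the values of Bcl6 was not tested.

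Tox, an HMG-box nuclear factor that is switched on in chronically stimulated and in follicular helper T cells, was likewise seen by a single probe on all 11 arrays. Its WT level ran from 9.23 to 10.74 with a median of 9.81, and the knockout samples 1 to 5 were at 9.86, 9.07, 10.39, 10.28 and 10.42. The lowest value of all belonged to knockout sample 2 and the highest to WT sample 6, so the groups lay across each other. The difference was 0.13 with an interval from -0.44 to 0.71 (limma, adjusted p = 0.835), which leaves room for a change in either direction. It ran from 0.00 without WT sample 3 to 0.37 without knockout sample 2.

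Tox2, a relative of Tox that follicular helper cells are known to express, was above background on 0 of 11 arrays. Its values ran from 4.86 to 5.22 in WT and from 4.97 to 5.08 in knockout samples. Ascl2, a transcription factor that can switch on Cxcr5 and that also marks intestinal stem cells, was above background on 0 arrays with each of its 3 probes. Their values lay between 4.61 and 5.37 in WT and between 4.60 and 5.28 in knockout samples. No fold change is given for these genes, since their signal was not well above background in either genotype.

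Cxcr5, the receptor for the follicle chemokine Cxcl13, was above background on all 11 arrays with each of its 3 probes. On its brightest probe the WT samples 1 to 6 were at 10.00, 9.36, 8.88, 9.70, 10.04 and 10.09. The knockout samples 1 to 5 were at 8.11, 8.65, 10.18, 9.39 and 9.98. Knockout samples 1 and 2 lay below every WT sample, whereas knockout sample 3 was the highest of all 11. The 3 probes gave differences of -0.44, -0.42 and -0.32, with intervals from -1.20 to 0.33, from -1.16 to 0.33 and from -1.01 to 0.38. None passed (limma, adjusted p = 0.547, 0.556 and 0.649). With 1 array left out they ran from -0.65 to -0.25, from -0.65 to -0.13 and from -0.57 to -0.09, nearest to 0 without knockout sample 1 and furthest without knockout sample 3 (for the first probe also without WT sample 3).

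Cxcr5 varied widely among samples of one genotype. The SD within genotypes was 0.71, 0.68 and 0.64 on its 3 probes, against a median of 0.19 over all tested probes, and each value was above that of at least 99.4% of tested probes. The 3 probes moved together over the 11 arrays, with a Pearson r between 0.95 and 0.96, so that the same samples were high or low on each of them. Tox followed Cxcr5 in part (r = 0.64, Spearman rho = 0.67, 11 arrays), and its own SD within genotypes was 0.53. WT sample 3 and knockout sample 2 were low for both genes, while knockout sample 1 was the lowest of all for Cxcr5 and in the middle of the range for Tox. These correlations are descriptions over arrays of 2 genotypes.

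**Figure D2:**
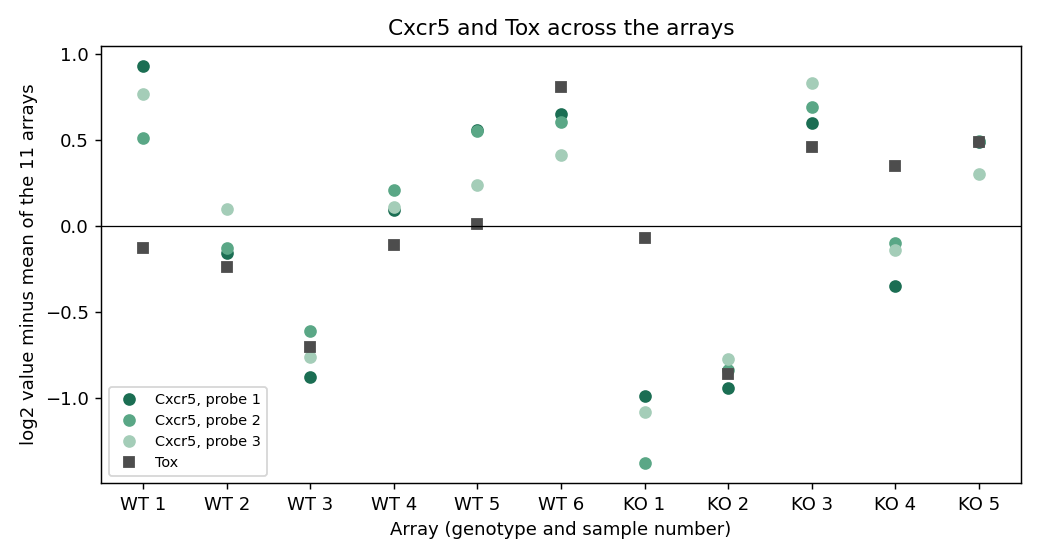
Log2 value minus the mean of the 11 arrays (y axis) for the 3 probes of Cxcr5 (green circles) and for Tox (grey squares) on each array (x axis). The Cxcr5 probes lie on the same side of the mean on every array but WT sample 2, and far below it in knockout samples 1 and 2 and WT sample 3.

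Over the 11 arrays, the 3 genes whose pattern was most like that of Cxcr5 were Gadd45b (r = 0.922), Lpin1 (r = 0.907) and Elavl4 (r = 0.903), out of 9138 genes. Gadd45b encodes a stress-induced signalling protein, Lpin1 a phosphatidate phosphatase and Elavl4 an RNA-binding protein. After the genotype means were removed, these values were 0.921, 0.928 and 0.891. Markers of other cells were set beside Cxcr5 as well. The mean level of CD8 and natural killer cell markers, of which 4 were tested, followed Cxcr5 with r = 0.77 and ran from 9.46 to 10.19 in WT and from 9.42 to 10.08 in knockout samples. The brightest gene of that list was Eomes, a T-box factor that CD4 T cells can also express, with a mean of 10.93 ± 0.66 (SD, n = 6) for WT and 10.83 ± 0.54 (SD, n = 5) for knockout cells. The next brightest genes of that list were Cd8b1 (difference -0.18) and Klrk1 (0.40), and neither passed. Cd8b1 varied less than Eomes (SD 0.18 in WT and 0.12 in knockout cells), so the r of this list mostly describes Eomes. B cell markers, which would come with Cxcr5-positive B cells, followed it with r = 0.14. Only 2 of them were tested, Cd79b and Fcer2a, above background on 7 and 8 arrays. Both were near background, so this r cannot show whether B cells were present. Pax5, Blnk, Cd22 and Cr2 were above background on 0 arrays and Ms4a1 on 1, and the Rag1-/- hosts make no B cells of their own. The part of all these markers in the spread of Cxcr5 was not tested.

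Icos, the costimulatory receptor that keeps Bcl6 and Cxcr5 expressed, was above background on all 11 arrays with both probes. On the first probe the WT level ran from 13.79 to 14.30 with a median of 14.12, and the knockout samples 1 to 5 were at 13.74, 13.60, 13.87, 14.03 and 13.91. All 5 knockout samples lay below the WT median. On the second probe the WT level ran from 13.93 to 14.16 with a median of 14.02, and the knockout samples were at 13.94, 13.75, 13.82, 13.85 and 14.06. There, 4 of 5 lay below the WT median and 3 below the lowest WT sample. The differences were -0.24 ± 0.11 (SE) and -0.15 ± 0.08 (SE), and neither passed (limma, adjusted p = 0.278 and 0.371). Their intervals ran from -0.48 to 0.00 and from -0.32 to 0.03. The first ended just below 0 before rounding (limma, unadjusted p = 0.0475). The probes followed each other loosely from array to array (r = 0.29).

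Slamf6 was measured by 3 probes, of which probes 1 and 3 were above background on all 11 arrays. Probe 2 was above background on 2 WT and 2 knockout arrays and was not tested. The platform annotation gives probe 3 a RefSeq transcript and probes 1 and 2 other cDNA records, and whether they read the same transcript forms was not tested. On probe 1 the WT level ran from 8.57 to 9.34 with a median of 8.91, and the knockout samples 1 to 5 were at 9.38, 9.14, 10.26, 9.76 and 9.83. Of the 5 knockout samples 4 lay above every WT sample, and knockout sample 2 lay below WT sample 2. The difference was 0.77 ± 0.19 (SE), a 1.70-fold higher level in knockout cells with a log2 interval from 0.36 to 1.18. It ranked 377th of the 18003 tested probes by p and missed the threshold (limma, adjusted p = 0.0635).

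On probe 3 the WT level of Slamf6 ran from 7.12 to 7.74 with a median of 7.38, and the knockout samples were at 7.80, 7.12, 7.83, 7.91 and 8.14. Again 4 of 5 knockout samples lay above every WT sample, and knockout sample 2 was as low as the lowest of them. The difference was 0.33 ± 0.17 (SE, limma adjusted p = 0.330), with an interval from -0.03 to 0.70. The probes moved together over the 11 arrays with r = 0.62. Probe 2, with means of 5.76 ± 0.24 (SD, n = 6) for WT and 5.77 ± 0.32 (SD, n = 5) for knockout cells, gave 0.01 in a fit without the filter on dim probes. It was above background on 2 WT and 2 knockout arrays, so this value cannot show whether its level differed.

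The result for Slamf6 probe 1 depended on the setting. Its difference stayed between 0.62 and 0.90 when 1 array was left out and between 0.65 and 0.82 under 9 other settings. It passed without WT sample 2 (adjusted p = 0.0344) and without knockout sample 2 (adjusted p = 0.0374), and in the other 9 fits of that kind it did not. It also passed with no background correction, with arrays scaled to equal medians, on the series value table, with a trended and robust variance and with array weights, at adjusted p from 0.0119 to 0.0476. Probe 3 passed in 0 of the 20 settings.

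Cd200, a membrane glycoprotein that restrains myeloid cells through its receptor and that follicular helper cells carry, was measured by 3 tested probes. On probe 1 the WT level ran from 7.91 to 8.26 with a median of 8.10, and the knockout samples 1 to 5 were at 8.53, 8.53, 8.62, 8.16 and 8.76. All but knockout sample 4 lay above every WT sample. Its mean was 8.09 ± 0.12 (SD, n = 6) for WT and 8.52 ± 0.22 (SD, n = 5) for knockout cells. The difference was 0.43 ± 0.11 (SE), 1.35-fold, with an interval from 0.21 to 0.66, and it missed the threshold (limma, adjusted p = 0.0592). It passed without knockout sample 4 (0.52, adjusted p = 0.0198) and under 5 of 9 other settings, with the lowest adjusted p at 0.0398.

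The other Cd200 probes were dim. Probe 2 was above background on 5 of 6 WT and 5 of 5 knockout arrays, and its difference was 0.30 with an interval from -0.20 to 0.79 (limma, adjusted p = 0.521). Probe 3 was above background on 3 WT and 4 knockout arrays, and its difference was 0.31 with an interval from -0.03 to 0.65 (limma, adjusted p = 0.325). Both pointed the same way as probe 1 and followed it over the arrays with r = 0.64 and 0.69. Their differences were 0.14 and 0.13 with no background correction and 0.10 and 0.10 on the series value table, and that of probe 2 was 0.16 without knockout sample 3 or 5 and 0.18 without WT sample 2. Knockout samples 3 and 5 were the highest of all arrays on probe 2, and knockout samples 2, 3 and 5 on probe 3.

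**Figure D3:**
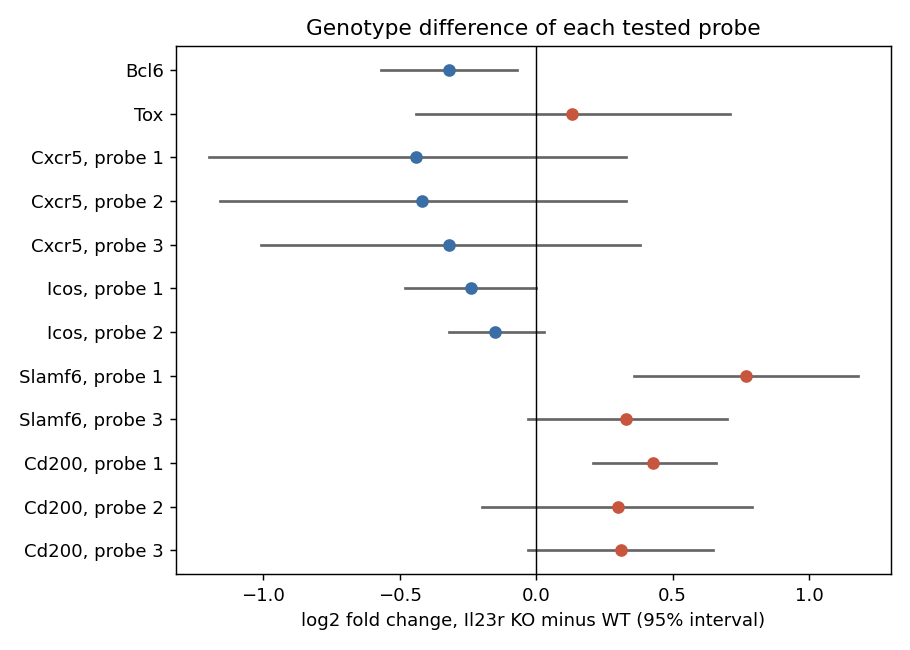
Log2 fold change, knockout minus WT (x axis), of each tested probe with its 95% interval from limma, higher in red and lower in blue. The intervals of Slamf6 probe 1, Cd200 probe 1 and Bcl6 lie to one side of 0 before adjustment. That of Icos probe 1 ends just below 0 (0.00 when rounded), and those of Cxcr5 are the widest.

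Cells other than CD4 T cells that carry Cd200 or Slamf6 were looked for by their markers. Of 9 B cell markers 7 had a probe and 2 were tested, Cd79b (0.06) and Fcer2a (-0.04), both near background, and their mean level was between 5.59 and 6.30 in WT and between 5.76 and 6.14 in knockout samples. Of 9 endothelial and stromal markers 3 were tested, and these were Vim (-0.21) and Pecam1 (-0.13), which T cells also express, and Dcn (-0.59). Cdh5, Kdr and the 3 collagen genes were above background on 0 arrays. Over the 11 arrays the mean level of this list ran against Slamf6 (r = -0.70) and Cd200 (r = -0.67) and with Icos (r = 0.62), between 11.18 and 11.66 in WT and between 11.04 and 11.24 in knockout samples. That mean is taken over unlogged values, and Vim was at 12.83 in WT samples, against 9.28 for Pecam1 and 6.83 for Dcn. The r values of this list therefore mostly describe Vim. T cell markers, between 13.70 and 13.88 in WT and between 13.76 and 13.80 in knockout samples, ran against Cd200 (r = -0.59). Of 13 myeloid markers 9 were tested and 7 had positive differences, with a median of 0.27, and Lyz1 (0.44), Cd74 (0.23) and H2-Aa (0.29) were the brightest over the 11 arrays. S100a8 (-0.79) and S100a9 (-0.63) were the negative ones, and Itgam and Itgax were above background on 0 arrays. The mean level of the list was between 8.63 and 10.37 in WT and between 9.32 and 9.83 in knockout samples, and it followed Slamf6 with r = 0.17 and Cd200 with r = 0.24. None of these markers passed, and their part in the values of Slamf6, Cd200 and Icos was not tested.

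By their pattern over the 11 arrays, the genes most like Slamf6 probe 1 were Id3 (r = 0.945), Pou6f1 (r = 0.945) and Dnaaf1 (r = 0.928). After the genotype means were removed, these values were 0.877, 0.865 and 0.819. Id3 binds E proteins and keeps them from DNA, and it is known from memory and follicular helper T cells. Its level was 5.62 ± 0.24 (SD, n = 6) for WT and 6.38 ± 0.26 (SD, n = 5) for knockout cells, with a signal above background in 1 WT and 5 knockout samples. Most WT values of Id3 are therefore background values, and both of its r values (0.945 and 0.877) include them. Pou6f1, a POU-domain factor, was at 0.43 ± 0.11 (SE, limma adjusted p = 0.0766).

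The genes most like Cd200 probe 1 were Gm4951 (r = 0.973), Hdc (r = 0.956) and Igtp (r = 0.942). Igtp is a GTPase induced by interferon gamma, and Hdc makes histamine. Gm4951 was above background in 0 WT and 5 knockout samples, and its level in knockout cells was at least 1.94-fold that of WT (limma, adjusted p = 0.00761; means 6.71 and 5.46). Its probe met the detection filter through the knockout arrays alone, and without that filter the adjusted p was 0.026. The r of Gm4951 includes its WT values, which are background values. Hdc was at 0.45 ± 0.11 (SE) and Igtp at 0.41 ± 0.10 (SE), and neither passed (limma, adjusted p = 0.0687 and 0.0718). Cd200 and Slamf6 themselves had r = 0.66 with each other. These genes were picked as the closest of 9138, and all points share the 2 genotypes and the normalization.

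**Figure D4:**
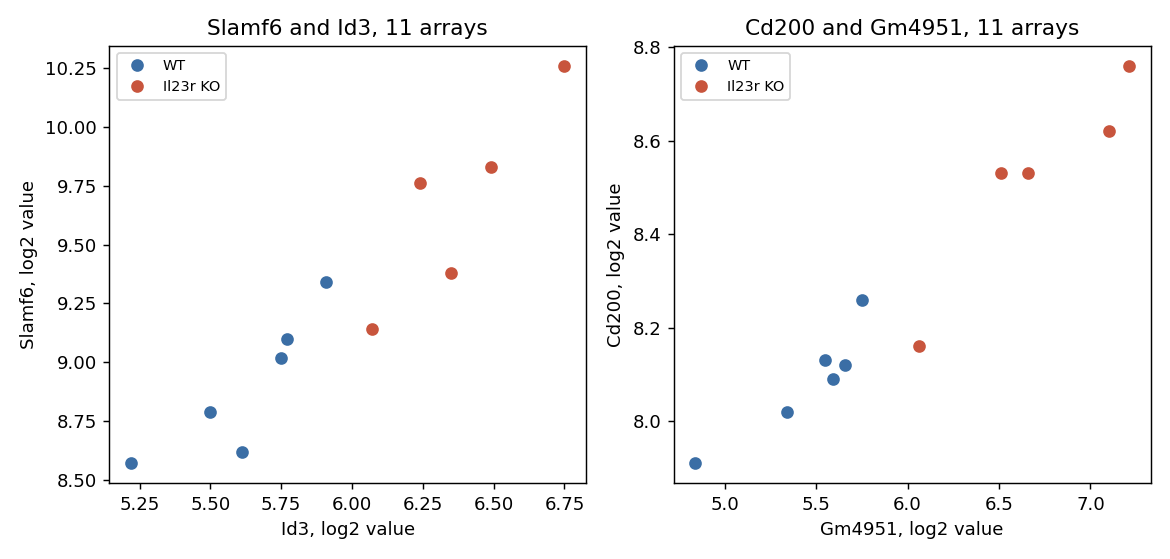
Log2 value of Slamf6 probe 1 against that of Id3 (left) and of Cd200 probe 1 against that of Gm4951 (right) on the 11 arrays, WT in blue and knockout in red. Pearson r over all arrays is 0.945 and 0.973, and the WT values of Id3 (above background on 1 of 6 arrays) and of Gm4951 (0 of 6) are mostly background.

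For Bcl6 the closest patterns were those of Cfap74 (r = 0.947), the AP-1 repressor gene Jdp2 (r = 0.892) and Aebp2 (r = 0.888), a cofactor of the Polycomb complex. For Icos they were Ppp1ca (r = 0.880), Cotl1 (r = 0.873) and Rab5if (r = 0.871). For Tox they were the kinase gene Pim3 (r = 0.880), Ndufaf8 (r = 0.869) and Gpn3 (r = 0.860). None of these 9 genes passed between genotypes, with adjusted p from 0.0983 for Rab5if to 0.919 for Ndufaf8 (limma). Bcl6 itself followed Cxcr5 (r = 0.62, Spearman rho = 0.39) more than Icos (r = 0.27, Spearman rho = 0.30), though by rank the gap was small. It ran against Cd200 (r = -0.43, Spearman rho = -0.41) and Slamf6 (r = -0.35, Spearman rho = -0.47).

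No gene of the wider SLAM family passed between genotypes. Of 12 genes for SLAM receptors and partners of SAP, 11 had a probe and 7 were tested, with 0 called higher and 0 lower. Over all 9139 genes, taken by their brightest tested probe, 1.27% were called higher and 0.667% lower. None of the 7 had an unadjusted p under 0.05, against 17.6% of all tested probes. Slamf7, a receptor of activated lymphocytes, was at 0.23 ± 0.12 (SE, limma adjusted p = 0.332), and Cd48, a ligand of the family, at -0.23 ± 0.13 (SE, limma adjusted p = 0.381). Ly9, next in order, was at 0.09. The list median was 0.02, beside 0.01 over those 9139 genes. Fyn, the kinase that SAP recruits, was at -0.03, with an interval from -0.20 to 0.13. Cd244, Slamf9, Sh2d1b1 and Sh2d1b2 had probes and were not tested, being above background on at most 1 array.

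Of 14 genes for factors related to TOX and Bcl6 or known to act with them, 13 had a probe and 10 were tested. Id3 was the only one of the 10 to pass, where 1.94% of the 9139 genes passed. Its fitted difference was 0.75 ± 0.14 (SE, limma adjusted p = 0.0158). The signal exceeded background on 1 of 6 WT arrays, and the probe met the detection filter through the knockout arrays, so the WT level is mostly a background value and the call is not independent of that filter. Without the filter the adjusted p was 0.038. The difference was 0.31 with no background correction, and the call was lost in 2 of 8 other settings, among them the series value table (0.29, adjusted p = 0.0724). Lef1, a partner of TCF1, was at -0.32 ± 0.12 (SE, limma adjusted p = 0.199), and Maf, which drives IL-21 and IL-4, at 0.32 ± 0.15 (SE, limma adjusted p = 0.304). Batf (-0.17), Irf4 (-0.33) and Stat3 (-0.03) had negative values and did not pass. The list median was -0.04, beside 0.01 over the 9139 genes. An unadjusted p under 0.05 was found for 2 of the 10, against 17.6% of all tested probes.

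Among 16 effector and receptor genes of follicular helper cells, 15 had a probe and 14 were tested. Il4, the cytokine with which these cells instruct B cells and which type 2 cells also make, was the only one of the 14 to pass. It rose from 9.10 ± 0.88 (SD, n = 6) to 10.88 ± 0.54 (SD, n = 5), with limma at 1.78 ± 0.37 (SE, adjusted p = 0.0306). Leaving out WT sample 3 or 5, or knockout sample 1, 2, 3 or 5, took away the call of Il4 (adjusted p up to 0.0842), as did 3 of the 9 other settings (up to 0.077), although the difference stayed positive in every fit run. Il21, the cytokine most tied to follicular helper cells, had WT values from 7.39 to 8.62 with a median of 8.09. Its knockout samples 1 to 5 were at 8.13, 9.27, 8.82, 8.42 and 8.32. The groups overlapped, and the difference was 0.56 ± 0.23 (SE, limma adjusted p = 0.228). Cxcr4, a receptor that draws cells to other parts of the follicle, was at -0.35 ± 0.13 (SE, limma adjusted p = 0.191). The inhibitory receptor genes Pdcd1 (-0.35) and Btla (-0.13), which follicular helper cells carry, did not pass. The list median was 0.00, beside 0.01 over the 9139 genes. Of the 14 genes 1 was called, against 1.94% of the 9139. An unadjusted p under 0.05 was found for 5 of the 14, against 17.6% of all tested probes.

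Of 14 genes that restrain the follicular program or keep T cells out of the follicle, all had a probe and 12 were tested. Of these, 0 were past the threshold, and their median was -0.04. Over the 9139 genes 1.94% passed and the median was 0.01. An unadjusted p under 0.05 was found for 3 of the 12, against 17.6% of all tested probes. Rc3h1, which encodes the RNA-binding repressor Roquin that limits Icos, was at -0.21 ± 0.09 (SE, limma adjusted p = 0.229). The IL-2 receptor chain gene Il2rb was at -0.36 ± 0.16 (SE, limma adjusted p = 0.260), and the homing receptor gene Ccr7 at 0.49 ± 0.22 (SE, limma adjusted p = 0.268). Prdm1, which encodes Blimp-1, the repressor that opposes Bcl6, was at -0.20 with an interval from -0.46 to 0.07. Of 4 ligand genes of these receptors, 3 had a probe and 2 were tested, and 0 passed. Icosl was at -0.07 and the Cd200 receptor gene Cd200r1 at -0.17, without passing, and Cxcl13 was above background on 2 arrays and not tested.

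**Figure D5:**
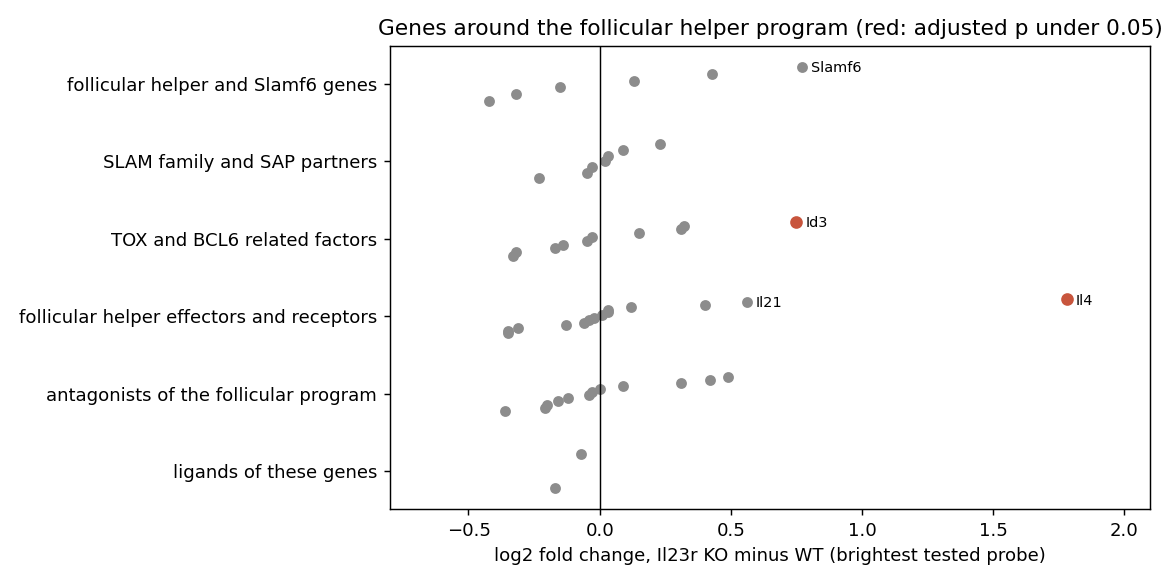
Log2 fold change, knockout minus WT (x axis), of the tested genes in 6 lists (rows), each gene by its brightest tested probe, with called genes in red and genes beyond 0.5 named. Most genes lie within 0.5 of 0, and Id3 and Il4 are the called ones.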

How the data were processed

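The authors deposited bead intensity per probe on a linear scale with a detection score per probe and array; per the submitters' processing notes, GenomeStudio 1.6.0 was used. The score rose with intensity (Spearman correlation at least 0.984), and was therefore taken as 1 minus a detection p, against its header. The deposited series value table was found to equal log2 intensity minus each array's 75th percentile, to within 0.000339 (log2), and this match joined its 45281 probe names to the intensities. Further steps by the authors, and slides, are not given here. Gene symbols came from the platform annotation (34885 probes with 1 symbol, 18 with several, 10378 not listed).

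The neqc function of limma 3.58.1 (R 4.3.3) was run with an offset of 16, which corrects background by normexp and applies quantile normalization. The offset shrinks differences of dim probes. Tested probes had a detection p under 0.05 on 5 or more of the 11 arrays. Genotypes were compared with lmFit and eBayes, two-sided, genotype as single term, with Benjamini-Hochberg adjustment over all 18003 tested probes. A gene of a list was represented by its brightest tested probe. The mean level of a marker list is the log2 of the mean of the unlogged values of its tested genes. A lower bound on a fold sets the knockout mean against the WT mean with each array at no less than the dimmest detected probe. The members, lists and tests were chosen with earlier results of these data known. The text names every probe of the 9 genes, of each list up to 3 genes with the smallest p and each called gene, of marker lists up to 3 of the brightest, and the 3 closest patterns per gene. Fyn, Batf, Irf4, Stat3, Pdcd1, Btla, Prdm1, Cxcl13, S100a8, S100a9, Cd3e, Cd4 and the undetected genes named beyond this rule were chosen after their values were seen. Alternatives were background, scaling, filter, variance model, array weights, replicate block and each array left out. The code was tested on simulated data.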

Additional observations from a re-analysis of the deposited data

How the results depend on the processing

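None of the 12 tested probes changed the sign of its difference under the alternatives it was tested in, 20 for 10 of the probes. Cd200 probes 2 and 3 were not tested with detection on all 11 arrays, and Tox came to 0.00 without WT sample 3. The count of these probes that were called was 0 in the main setting and 2 with no background correction, on the series value table, with a trended and robust variance and with array weights (Slamf6 probe 1 and Cd200 probe 1 each time). It was 1 with equal medians (Slamf6) and with probes detected on all 11 arrays (Cd200), and lay between 0 and 1 in the fits that leave out an array. The number called among all probes was 320, with 210 and no filter on dim probes, and ran from 159 (without WT sample 5) to 513 (without WT sample 2). It was also over 1.5 times lower without WT sample 3 (162) and without knockout sample 2, 3 or 4 (187, 178 and 181). With equal medians 199 probes were higher and 58 lower, against 210 and 110. Genes called in the 5 lists numbered 2 and fell to 1 with the replicate block, on the series value table, without a filter, with detection on all 11 arrays and with a trended variance, and ran from 1 to 2 with an array left out. Under the block that gene was Ccr7 (0.63, adjusted p = 0.0233, against 0.123 on the same arrays without the block), and Id3 and Il4 missed the threshold. The cause of these shifts was not tested.

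The labels do not say whether a sample number marks a shared recipient, and the numbers were not taken as pairs: same-numbered deviations correlated with r = 0.24, 0.17, -0.01, 0.08 and 0.26, and only knockout sample 2 was closest to its own number. Median intensities of same-numbered arrays were near each other, from 165.3 and 176.7 for number 1 to 107.6 and 117.5 for number 5. With the replicate block over numbers 1 to 5, 264 probes were called and 0 of the 12, with Slamf6 probe 1 at 0.79 (adjusted p = 0.105) and Cd200 probe 1 at 0.44 (adjusted p = 0.0608). Dim signal limits Tox2, Ascl2 and Slamf6 probe 2, which did not meet the detection filter, so whether their levels differed cannot be told.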
